A study of Mus musculus with 14 samples.

Results

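Phase II conjugation enzymes of the liver were followed in 14 male C57BL/6N mice aged 10 weeks, whose livers were each read on 1 Clariom S array. Mice of the compression group (n = 7) wore adjustable clothes that loaded the trunk for 8 hours, and mice of the no-compression group (n = 7) wore the same clothes without the load. In both groups livers were collected after isoflurane anesthesia and cervical dislocation, and 200 ng of total RNA was labelled per array. The comparison asks which hepatic transcripts differ after compression of the trunk. The genes described here are all those on the array whose symbol begins with Gsta, Gstm, Gstp, Gstt, Gstk, Gsto or Gstz, with Ugt1, Ugt2 or Ugt3, or with Sult. The rule found 52 genes among the 19505 that the array annotation names, each read by 1 probe set, a group of short DNA probes against its transcripts. They are 21 glutathione S-transferases, 10 UDP-glucuronosyltransferases and 21 sulfotransferases. No symbol of the table begins with Ugt1, so the Ugt1 genes were not analysed here.

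Phase II enzymes attach a polar group to a drug, hormone, bile acid or waste product, so that it dissolves in water and can leave through bile or urine. Glutathione S-transferases add the tripeptide glutathione to reactive electrophiles, UDP-glucuronosyltransferases of the endoplasmic reticulum add glucuronic acid from UDP-glucuronate, and cytosolic sulfotransferases add sulfate from the donor PAPS. In hepatocytes many of these genes answer to the stress-activated transcription factor NRF2 or to the receptors CAR, PXR and AHR. Several differ between male and female mice through the pattern of growth hormone release. Each value below is a log2 signal, on which a difference of 1 is a doubling, and differences are compression minus no-compression. Signals of different genes depend on their probes and cannot be set against each other as amounts of RNA.

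The factor analysis behind the deposited values gives a probe set nearly the same value on every array unless its probes rise and fall jointly, so most genes carry no information on a difference between mice. A probe set is said here to have spread where the SD of its log2 signal over the 14 arrays was above 0.01. This held for 1238 of 22206 probe sets (5.58%) and for 27 of the 52 phase II genes (51.9%). Signal goes with spread on these arrays. Among the 2316 probe sets with a mean signal of at least 9, 34.8% had spread, and 24 of the 29 phase II genes at that signal did. The limit is not close to most members. Just inside it lay Gstm4, with an SD of 0.0247, and Ugt2b34, with 0.0328, and just outside it Sult1b1, with 0.00256, and Ugt2b37, with 0.000954. Of the 25 genes without spread, 23 had an SD below 2e-05.

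Array medians lay between 6.51 and 6.52. Hepatocyte markers such as albumin, 8 of them measured, had mean signals of 12.46 to 13.39, while 9 markers of pancreas, adipose tissue and T and B cells lay between 5.47 and 6.45 with 0 of 9 showing spread. Among the 1238 probe sets with spread, no-compression replicates 3, 6 and 7 were together the 3 lowest or the 3 highest of the 14 arrays for 418 (33.8%). These arrays therefore stand apart from the other 4 of their group, and differences below are given also without them. The 3 arrays were picked from these same values. Leaving them out shows how far a result rests on them and is no independent check. In whole liver, fewer cells of a type and less RNA per cell cannot be told apart, and p-values set a difference against the spread between these mice.

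The 3 classes differed in how many of their genes were read with signal and spread in male liver. Of the glutathione S-transferases 15 of 21 had spread, with class means from 5.25 to 12.88 and a median of 10.29. The highest mean signals of this class were those of Gstm1 (12.88), a mu class enzyme, Gsta3 (12.47), an alpha class enzyme that detoxifies aflatoxin epoxide in mice, and Gstp1 (12.33), a pi class enzyme more abundant in males. The genes without spread were Gstz1 (11.38), the maleylacetoacetate isomerase of tyrosine breakdown, Gsta4 (9.28), which conjugates lipid peroxidation aldehydes, Gsto1 (9.20), an omega class enzyme that can reduce dehydroascorbate, Gstm5 (6.85), Gstt4 (5.61) and Gsto2 (5.25). Of the UDP-glucuronosyltransferases 8 of 10 had spread, and their mean signals ran from 7.04 to 11.93 with a median of 11.11. The highest were Ugt3a2 (11.93), whose human counterpart uses sugars other than glucuronic acid and which had no spread, Ugt2b1 (11.74) and Ugt2b36 (11.59), both of the family that conjugates steroids and drugs.

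Sulfotransferases were mostly at low signal. Only 4 of 21 had spread, and the class median was 5.66 within a range of 5.06 to 12.04. The highest were Sult2a8 (12.04), described in mice as a hepatic bile acid sulfotransferase, Sult1a1 (11.04), the phenol sulfotransferase, and Sult1d1 (10.70), which acts on catecholamines and had no spread. Among the 8 Sult2a genes, a family of hydroxysteroid and bile acid sulfotransferases, Sult2a8 stood at 12.04 and the other 7 lay between 5.06 and 5.96, the range of the off-tissue markers or below it. Sult1b1 (7.56), which sulfates thyroid hormone, and Sult1c2 (6.87) were read above that range without spread. Sult2b1 (6.01), a cholesterol sulfotransferase, Sult4a1 (5.52), known from brain, Sult3a1 (5.37), Sult3a2 (5.34), Sult1c1 (5.20), Sult6b1 (5.55) and Sult6b2 (5.30) lay in it or below. Of 17 phase II genes with a mean below 6.5, Sult1e1 alone had spread.

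**Figure D1:**
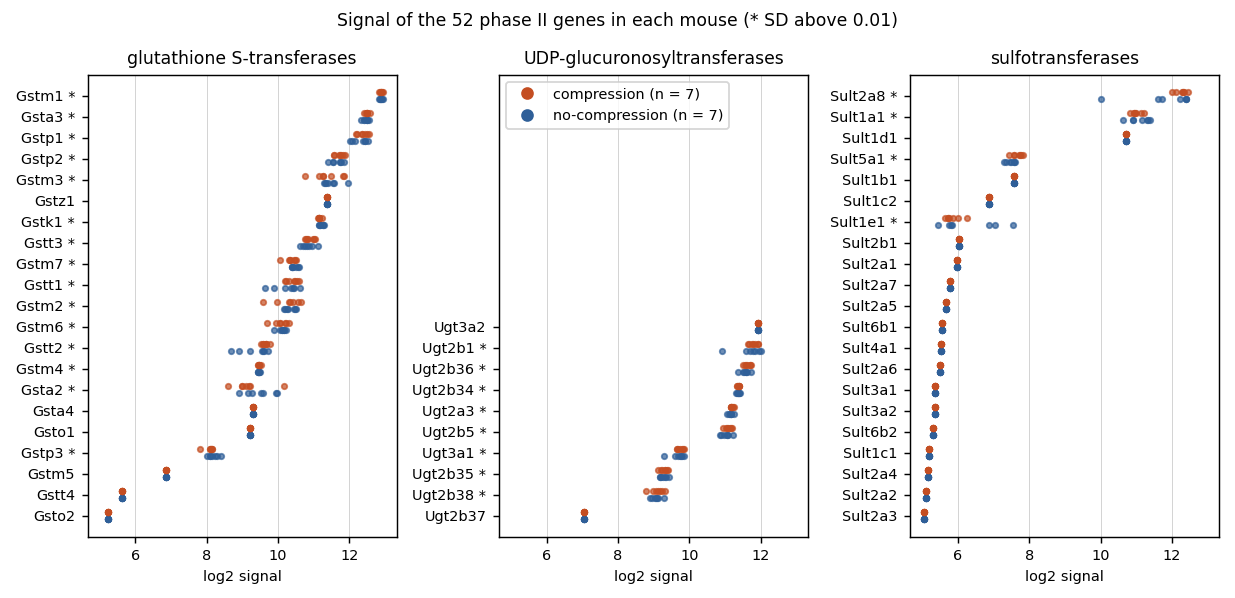
Log2 signal of the 52 phase II genes in each mouse, 1 panel per enzyme class, with genes ordered by mean signal, points for the 7 compression and 7 no-compression mice, and a star at the 27 genes with an SD above 0.01. Sulfotransferases other than Sult2a8, Sult1a1, Sult1d1, Sult5a1, Sult1b1, Sult1c2 and Sult1e1 lie at or below 6.01, and genes without a star differ between mice by too little to see at this scale.

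No phase II gene differed between the groups in limma after Benjamini-Hochberg adjustment over all 22206 probe sets. The background is the same, since limma called 0 of 22206 probe sets (0%), with a lowest adjusted p of 0.30 and 1152 probe sets at an unadjusted p under 0.05. Adjusted p-values in limma of the 27 genes with spread lay between 0.943 and 0.996. At an unadjusted limma p under 0.05 stood 1 of the 27, Sult5a1, against 92 of 1238 probe sets with spread (7.43%). The groups overlapped for all 27 genes, as they did for all 1238 probe sets with spread (0% without overlap). Of the 27 genes 18 had the higher mean with compression and 9 the lower, with a median log2 difference of 0.024, beside 598 higher and 640 lower probe sets and a median of -0.0029 over all with spread. The size of the difference was at least 0.3 for 4 genes and below 0.1 for 17, and its median was 0.067 beside 0.078 over all probe sets with spread.

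The rank products method, which the study's methods name and which ranks fold changes within pairs of arrays, gave calls at an FDR of 0.01. Higher with compression were 4 phase II genes, Sult5a1, Gstt2, Sult2a8 and Gstt1, against 291 of 22206 probe sets (1.31%), or 286 of the 1238 with spread (23.1%). Lower were 5, Gsta2, Sult1e1, Gstm3, Gstk1 and Gstm7, against 256 probe sets (1.15%), or 252 of those with spread (20.4%). These are 9 of 27 genes (33.3%) where the share over all probe sets with spread, in either direction, was 42.6%. The share among phase II genes was thus not above the background of this method.

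The largest difference was that of Sult1e1, the estrogen sulfotransferase, which inactivates estradiol. All 7 compression mice and 4 of the 7 no-compression mice lay within or below the range of the off-tissue markers, 5.47 to 6.45, so its level there is not told apart from background. Its log2 signal in the compression group ran from 5.63 to 6.24 with a median of 5.76, and in the no-compression group from 5.43 to 7.53 with a median of 5.84. The 3 highest mice were no-compression replicates 6 (7.53), 3 (7.03) and 7 (6.86), while the lowest of all was no-compression replicate 1, so the groups overlapped. The means were 5.85 ± 0.21 and 6.32 ± 0.80 in the compression and no-compression groups (SD, n = 7 each). The difference was -0.47 (SE 0.308, 95% interval -1.14 to 0.20), with an adjusted p of 0.944 in limma, and its size is that of the array values, not of a measured amount of RNA. Without the 3 arrays the no-compression mean was 5.70 ± 0.19 (SD, n = 4) and the difference 0.15, with the opposite sign.

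For Sult2a8 the same 3 mice were at the other end of the range. Its log2 signal ran from 12.01 to 12.45 with a median of 12.31 in the compression group, and from 10.02 to 12.38 with a median of 12.21 in the no-compression group. The 3 lowest mice were no-compression replicates 6 (10.02), 7 (11.62) and 3 (11.73), and the other 4 of that group lay between 12.21 and 12.38, inside the range of the compression group. The means were 12.26 ± 0.15 and 11.82 ± 0.86 (SD, n = 7 each), and the difference of 0.44 (SE 0.322, 95% interval -0.26 to 1.14) had an adjusted p of 0.967 in limma. Without the 3 arrays it was -0.078.

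Sult5a1 kept its sign and most of its difference without those arrays. Its log2 signal ran from 7.42 to 7.83 with a median of 7.71 in the compression group, and from 7.30 to 7.58 with a median of 7.49 in the no-compression group. The 4 highest mice, replicates 7, 2, 4 and 5, were of the compression group, but compression replicate 3 was the third lowest of the 14, so the groups overlapped. The difference was 0.19 (SE 0.0658, 95% interval 0.04 to 0.33), or 1.14-fold, and 0.14 without the 3 arrays. The unadjusted p was 0.0150 in limma and 0.0204 in an exact two-sided permutation test over the 3432 splits of the arrays, whose smallest possible p is 0.000583. After adjustment over all probe sets the p in limma was 0.943, and without the 3 arrays the unadjusted p was 0.0810. Sult1a1 ran from 10.82 to 11.21 with a median of 10.96 with compression and from 10.64 to 11.37 with a median of 11.15 without. No-compression replicates 3, 6 and 7 were its 3 highest mice, and the difference was -0.091 (SE 0.113), or 0.093 without them.

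Gsta2, an alpha class enzyme inducible through NRF2 and AHR, was the glutathione S-transferase with the widest spread among mice. Its log2 signal ran from 8.59 to 10.16 with a median of 9.10 with compression and from 8.91 to 9.96 with a median of 9.51 without. The highest mouse of all, compression replicate 4 at 10.16, was followed in its group by replicate 6 at 9.21, and the 3 mice below it were no-compression replicates 7, 3 and 6. The difference was -0.30 (SE 0.23, 95% interval -0.80 to 0.20), with an adjusted p of 0.968 in limma, and -0.038 without the 3 no-compression arrays.

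The start regions of Sult1e1, Sult2a8 and Gsta2, the members with the widest range between mice, are shown. These genes were picked after their values were seen. They are RefSeq windows of build GRCm38.p6, from 250 bases before to 50 after an annotated start, each printed 5′ to 3′ on the minus strand, on which the genes lie. Capitals mark a match to a motif searched on both strands, and a match is a description of letters, not a bound site.
Sult1e1, chr5:87591562-87591861: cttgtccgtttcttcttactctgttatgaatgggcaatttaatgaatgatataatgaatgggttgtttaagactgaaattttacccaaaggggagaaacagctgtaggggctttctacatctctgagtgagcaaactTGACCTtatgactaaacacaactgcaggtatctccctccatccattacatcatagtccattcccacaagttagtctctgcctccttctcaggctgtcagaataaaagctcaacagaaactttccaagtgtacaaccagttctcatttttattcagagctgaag
Sult2a8, first start, chr7:14446538-14446837: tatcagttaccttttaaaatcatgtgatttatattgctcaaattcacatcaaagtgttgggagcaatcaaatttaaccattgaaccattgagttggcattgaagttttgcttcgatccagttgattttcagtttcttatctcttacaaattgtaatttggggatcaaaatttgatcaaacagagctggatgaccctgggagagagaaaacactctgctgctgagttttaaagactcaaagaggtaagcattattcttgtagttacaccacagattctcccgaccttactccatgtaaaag
Sult2a8, second start, chr7:14438502-14438801: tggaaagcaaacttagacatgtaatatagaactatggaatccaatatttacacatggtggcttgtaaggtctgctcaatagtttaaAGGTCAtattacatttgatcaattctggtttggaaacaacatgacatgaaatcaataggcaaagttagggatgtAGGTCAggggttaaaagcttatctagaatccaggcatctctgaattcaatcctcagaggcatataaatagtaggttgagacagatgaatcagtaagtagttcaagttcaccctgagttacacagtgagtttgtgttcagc
Gsta2, chr9:78347096-78347395: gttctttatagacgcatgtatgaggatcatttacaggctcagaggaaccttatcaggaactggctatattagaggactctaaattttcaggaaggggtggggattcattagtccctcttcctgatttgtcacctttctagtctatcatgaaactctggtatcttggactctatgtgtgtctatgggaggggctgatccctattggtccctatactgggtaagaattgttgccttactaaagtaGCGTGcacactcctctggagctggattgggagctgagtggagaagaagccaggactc
The nuclear receptor motif AGGTCA was found once at Sult1e1, on the other strand at position -113 from the start, and at the second start of Sult2a8 at -164 and -90. The first start of Sult2a8 held none of the 5 motifs, and Gsta2 held the core GCGTG of the xenobiotic response element at -7.

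The same 5 motifs were counted in all windows. Of the 52 genes 45 had a window, 56 windows in all, and 7 had none. AGGTCA stood in 10 of the 56 (17.9%) and in 16.3% of the 32851 windows of all genes. The HNF1 motif GTTAAT, named for a hepatocyte factor, stood in 10 (17.9%) beside 7.1%. GCGTG stood in 10 (17.9%) beside 32.4%, the antioxidant response element core TGACNNNGC in 3 (5.36%) beside 12.4%, and the STAT5 core TTCNNNGAA in 2 (3.57%) beside 8.3%. Among genes with spread, TGACNNNGC was found at Gsta3 and Gstm7, and TTCNNNGAA at Gstm6. Windows of paralogs share sequence, so these counts are not of independent windows.

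**Figure D2:**
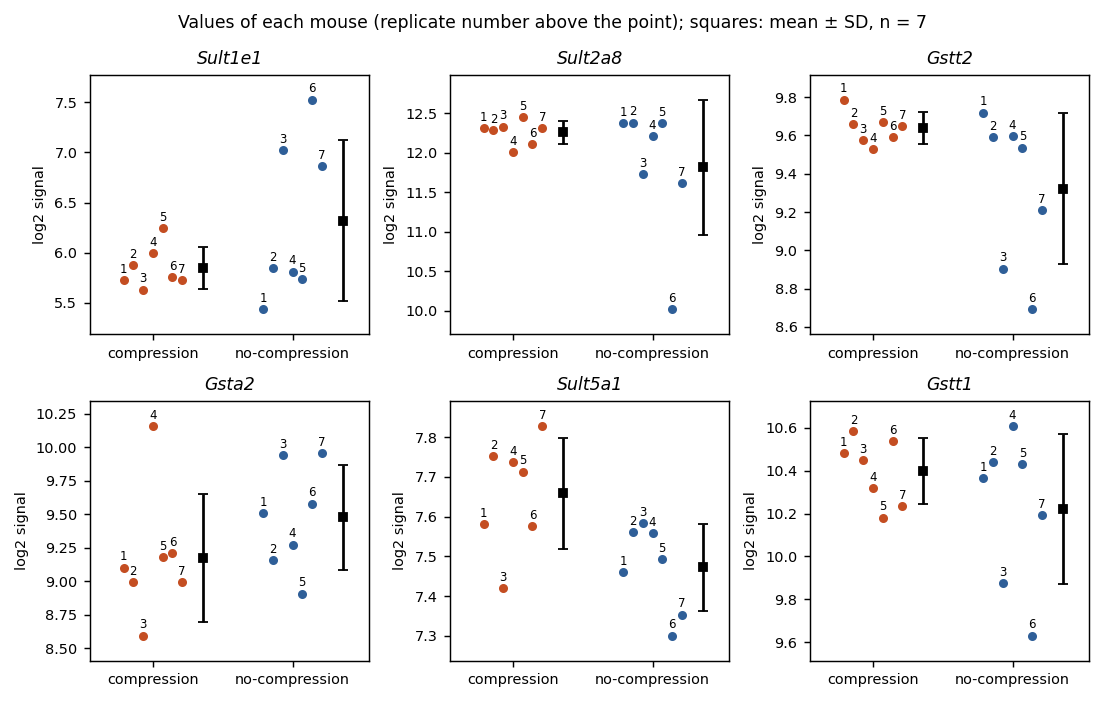
Log2 signal of the 6 phase II genes with the largest differences in each mouse, with the replicate number above each point and squares with bars for the mean ± SD of 7 mice. No-compression replicates 3, 6 and 7 are the 3 highest mice of Sult1e1 and the 3 lowest of Sult2a8 and Gstt2, and compression replicate 4 is the highest of Gsta2.

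Theta class enzymes, which act on small halogenated molecules, had higher means with compression for 3 of 3 genes with spread. Gstt2 ran from 9.53 to 9.79 with a median of 9.65 with compression and from 8.69 to 9.72 with a median of 9.54 without. No-compression replicates 6 (8.69), 3 (8.90) and 7 (9.21) were its 3 lowest mice, and the other 4 overlapped with the compression group. The difference was 0.32 (SE 0.15, 95% interval -0.01 to 0.64), with an adjusted p of 0.943 in limma, and 0.027 without the 3 arrays. Gstt1 ran from 10.18 to 10.58 with a median of 10.45 with compression and from 9.63 to 10.61 with a median of 10.37 without. Its lowest mice were again no-compression replicates 6 and 3, its highest was no-compression replicate 4, and the difference of 0.18 (SE 0.142) became -0.064 without the 3 arrays. Gstt3 differed by 0.055 (SE 0.0751), and by 0.043 without them.

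Mu class genes, which lie side by side in the mouse genome and conjugate many epoxides, were marked by 1 mouse of the compression group. Compression replicate 3 was the lowest of the 14 for 6 of 6 Gstm genes with spread. Over all members it was the lowest for 10 of 27, and over all probe sets with spread it was the lowest for 310 of 1238. For these 6 genes the SD was larger in the compression group, and the no-compression SD was the larger for 0 of 6. The SDs were close for Gstm1 (0.0368 with compression, 0.0360 without) and Gstm4 (0.0270 and 0.0244). All of these SDs include compression replicate 3. Gstm3 ran from 10.74 to 11.86 with a median of 11.26 with compression and from 11.28 to 11.96 with a median of 11.39 without, and differed by -0.12 (SE 0.169). Gstm7 ran from 10.06 to 10.51 with a median of 10.35 with compression and from 10.38 to 10.58 with a median of 10.42 without, and differed by -0.10 (SE 0.063). Without no-compression replicates 3, 6 and 7 these differences were 0.029 and -0.043. Gstm2 differed by -0.073 (SE 0.146) and Gstm6 by -0.033 (SE 0.0891), and these became -0.091 and -0.061 without the 3 arrays, or 0.040 and 0.032 when only compression replicate 3 was left out. Without compression replicate 3 the difference of Gstm3 was -0.020. Gstm4 (0.0019) and Gstm1 (0.0010) had nearly equal means, within SEs of 0.0135 and 0.0191, and differed by -0.0029 and -0.0065 without the 3 arrays.

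Pi class genes, which lie in 1 cluster, differed in both directions. Gstp1 ran from 12.18 to 12.55 with a median of 12.36 with compression and from 12.02 to 12.52 with a median of 12.38 without, and no-compression replicates 7, 3 and 6 were its lowest mice. Its difference was 0.080 (SE 0.0889) and became -0.072 without them. Gstp2 had the same 3 lowest mice, with means of 11.72 ± 0.12 and 11.65 ± 0.16 (SD, n = 7 each) and a difference of 0.067, or -0.056 without them. Gstp3 went the other way. It ran from 7.81 to 8.14 with a median of 8.12 with compression and from 8.01 to 8.40 with a median of 8.15 without, had no-compression replicates 3, 7 and 6 as its highest mice, and differed by -0.11 (SE 0.0668), or by -0.014 without them. Gstk1, the kappa class enzyme of mitochondria and peroxisomes, differed by -0.048 (SE 0.0249) and by -0.0037 without the 3 arrays, which were its highest mice. Gsta3 differed by 0.024 (SE 0.0359), and by -0.036 without them. Probes of such close paralogs may bind transcripts of their neighbours, which cannot be told from the table.

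Of the 8 UDP-glucuronosyltransferases with spread, 8 had a higher mean with compression and 0 a lower, with a median difference of 0.051. Without no-compression replicates 3, 6 and 7 this turned to 0 higher and 8 lower, with a median of -0.023. Without no-compression replicate 6 alone the median was 0.012. With all arrays the 95% interval of each of the 8 differences held 0. Without the 3 arrays the unadjusted p in limma ran from 0.157 for Ugt2b1 to 0.935 for Ugt2a3. The genes are paralogs read in the same mice, so the 8 signs are not independent. Ugt2b1 ran from 11.65 to 11.93 with a median of 11.79 with compression and from 10.92 to 12.02 with a median of 11.77 without. Its lowest mouse was no-compression replicate 6 at 10.92, the next of that group stood at 11.60, and its 2 highest mice were no-compression replicates 2 and 1. The difference was 0.11 (SE 0.143, 95% interval -0.20 to 0.42), -0.11 without the 3 arrays and -0.022 without replicate 6 alone. The other 7 differences lay between 0.0061 for Ugt2b34 and 0.067 for Ugt3a1, with Ugt2b36 at 0.064, Ugt2b5 at 0.062, Ugt2a3 at 0.039, Ugt2b38 at 0.032 and Ugt2b35 at 0.016. No-compression replicate 1 was the highest of the 14 mice for 6 of the 8, Ugt2a3, Ugt2b34, Ugt2b35, Ugt2b36, Ugt2b5 and Ugt3a1, and replicate 6 was the lowest for 4. Over all 1238 probe sets with spread, no-compression replicate 1 was the highest for 128.

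**Figure D3:**
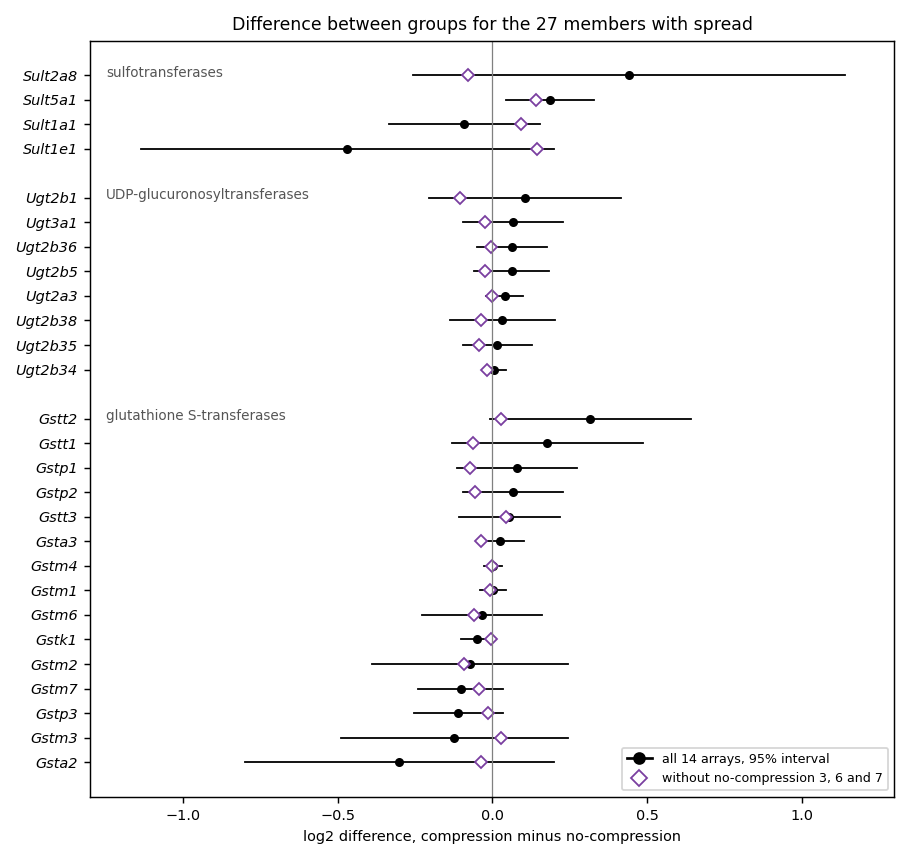
Log2 difference between the groups, compression minus no-compression, for the 27 phase II genes with spread, sorted within each class, with the 95% interval over all 14 arrays and an open diamond for the value without no-compression replicates 3, 6 and 7. The diamonds of all 8 UDP-glucuronosyltransferases lie below 0, and that of Sult1e1 at 0.15 and that of Sult2a8 at -0.078 lie on the other side of 0 from their black points.

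Counted by class, the glutathione S-transferases with spread had 8 higher and 7 lower means and a median difference of 0.0010, and leaving out the 3 arrays gave 3 higher and 12 lower, at a median of -0.036. Sulfotransferases split 2 to 2 at a median of 0.047, and without the arrays 3 had the higher mean and 1 the lower, at a median of 0.12. The sign of the difference turned for 18 of the 27 genes when the 3 arrays were left out, and for 620 of 1238 probe sets with spread. The median size of the difference went from 0.067 to 0.038 for the phase II genes and from 0.078 to 0.041 over all. After removal of the arrays the largest size was the 0.15 of Sult1e1.

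The spread between mice differed by group and by class. Over the 27 genes the median SD was 0.119 with compression and 0.135 without, and 0.0672 in the no-compression group without replicates 3, 6 and 7, beside 0.115, 0.162 and 0.0764 over all probe sets with spread. The no-compression SD was the larger for 17 of 27 genes and 822 of 1238 probe sets, and without the 3 arrays for 4 of 27 and 327 of 1238. The 3 arrays were picked as the extreme ones of their group, so a smaller SD without them follows from that choice. By class the no-compression SD with all arrays was larger for 8 of 15 glutathione S-transferases, 6 of 8 UDP-glucuronosyltransferases and 3 of 4 sulfotransferases. The ratio of the no-compression to the compression SD was 5.74 for Sult2a8, 4.73 for Gstt2, 3.82 for Sult1e1, 3.22 for Ugt2b1 and 2.26 for Gstt1, and 0.382 for Gstm2. For 9 of 27 genes (33.3%) the 3 arrays were together the 3 lowest (Sult2a8, Gstt2, Gstp1, Gstp2 and Ugt2a3) or the 3 highest (Sult1e1, Sult1a1, Gstp3 and Gstk1), a share close to the 33.8% of all probe sets with spread. Of 43 cell type markers measured 11 had spread, 4 higher and 7 lower with compression. Of the Kupffer cell markers 3 of 7 had spread, 1 higher and 2 lower, with a median of -0.051, or 0.032 without the 3 arrays. The 3 measured neutrophil genes all had spread and a lower mean with compression. Averaged over these 3 genes, the signal ran from 5.74 to 5.91 over compression mice and from 5.71 to 6.31 over no-compression mice. Their median difference was -0.19, or 0.026 without the 3 arrays. Their gene means of 5.67 to 6.05 lay inside the off-tissue range of 5.47 to 6.45, near background. The part of any cell type in the values of the phase II genes was not tested.

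**Figure D4:**
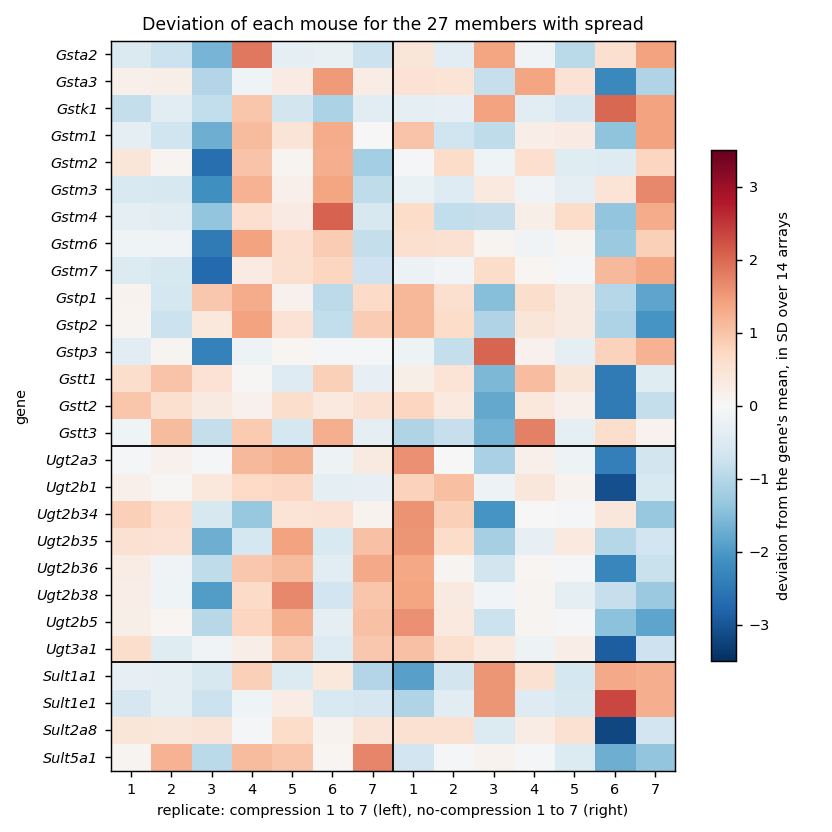
Deviation of each mouse from the gene's mean, in units of the gene's SD over 14 arrays, for the 27 phase II genes with spread in rows and the 14 mice in columns, with lines between the groups and between the enzyme classes. Compression replicate 3 is blue over the 6 Gstm genes, no-compression replicate 6 is blue over most UDP-glucuronosyltransferases, and no-compression replicate 1 is red over all 8 of them, as the highest mouse for 6.

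Genes that feed or follow the conjugation enzymes were read from lists of their cofactors and partners, with 37 genes measured, 17 with spread and 0 called by limma. Of the 17, 11 were higher and 6 lower with compression. Rank products called 10 of the 17, beside 42.6% of all probe sets with spread. For glutathione supply 3 of 9 measured genes had spread and 3 were lower, with Cth, the lyase that frees cysteine, at -0.26 (SE 0.138) and Cbs, the enzyme before it, at -0.19 (SE 0.0878, adjusted p of 0.943 in limma). These were -0.062 and -0.033 without the 3 arrays. For UDP-glucuronate supply 3 of 4 had spread, with Ugdh, which oxidises UDP-glucose to UDP-glucuronate, at -0.18 and Ugp2, which makes UDP-glucose, at 0.18, and -0.045 and -0.029 without the 3 arrays. Of 5 genes of sulfate donor supply only Papss2, a synthase of PAPS, had spread, with a difference of 0.00069, or 0.037 without the 3 arrays. Among exporters of conjugates 3 of 4 had spread and 3 were higher, with Abcg2, which carries sulfates, at 0.26 and Abcc2, the canalicular pump of glucuronides and glutathione conjugates, at 0.092, and 0.019 and 0.0042 without the 3 arrays. Of 13 genes listed as other phase II 7 had spread, 6 higher and 1 lower. The 6 include Ephx1 and Ephx2, epoxide hydrolases, which add water and are not conjugating enzymes. Nnmt, nicotinamide N-methyltransferase, was at -0.19 and Baat, which joins bile acids to taurine or glycine, at 0.15. These were 0.31 and -0.0015 without the 3 arrays. Neither of the 2 deconjugating enzymes measured had spread.

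Regulators and reporters of phase II genes held 39 measured genes, 23 with spread, 14 higher and 9 lower, and 0 called by limma. Rank products called 15 of the 23, beside the same 42.6%. It called 8 as higher and 10 as lower, since the male-biased genes Elovl3, Hsd3b5 and Slco1a1 were called in both directions. A call in both directions gives no direction of change. Of 8 NRF2 genes only Hmox1, heme oxygenase, and Gclc, the first enzyme of glutathione synthesis, had spread, at -0.29 (SE 0.207) and -0.035 (SE 0.0417), and 0.054 and -0.059 without the 3 arrays. Of 8 genes of the CAR and PXR list 6 had spread, 3 higher and 3 lower. Nr1i3, the gene of CAR itself, was at 0.50 (SE 0.207), with an unadjusted p of 0.0323 and an adjusted p of 0.943 in limma, and 0.078 without the 3 arrays. Cyp2b9 was at 0.45 (SE 0.402), and 0.95 without them. The AHR reporter Cyp1a2 was at 0.15 (SE 0.151), and -0.14 without them. Genes more abundant in male liver, among them Gstp1 and Gstp2, were higher with compression for 9 of 9, with a median of 0.43 that became -0.16 without the 3 arrays. The widest were the transporter Slco1a1 at 0.71 (SE 0.629) and the steroid reductase Hsd3b5 at 0.66 (SE 0.671), which became -0.35 and -0.60. Of the female-biased genes 6 of 9 had spread, 2 higher and 4 lower. Cyp2b9, named above, is also in this list and had its largest difference, 0.45, or 0.95 without the 3 arrays. Cyp17a1 went the other way at -0.30, or 0.32 without the 3 arrays. The members Sult2a1 and Sult3a1 of this list had no spread.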

How the data were processed

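Clariom S mouse arrays of 14 livers were quantified by the authors with qFarms in R 3.4.4, the version in the submitters' processing notes, which normalizes arrays by quantiles and then summarises the probes of a probe set through a factor analysis. The deposited log2 values were used unchanged. No genome build is given in the sources used here for the array, and no read depth applies, so the number of arrays limits the precision. Of 29129 rows, 6923 control rows were left out, and 22206 probe sets were tested. The platform annotation gave 1 gene symbol for 19572 of them, several for 0 and none for 2634. RefSeq promoter windows were joined to the genes by symbol, and 45 of the 52 genes had a window.

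The labels gave each mouse its group. The difference between groups was fitted by limma (version 3.58.1, R 4.3.3) with lmFit and eBayes, and p-values were adjusted by Benjamini-Hochberg over the 22206 probe sets, with a limit of 0.05. Rank products, with 49 random pairings and an FDR limit of 0.01, was coded anew, since the package itself was not run. Python 3.11.15 was used, with numpy 2.4.6 for the ranks, scipy 1.17.1 for their distribution, pandas 2.3.3 for tables and matplotlib 3.10.9 for figures. The scripts were tested on simulated data. Alternatives were quantile normalization, median centring, filters on mean signal and on spread, limma with trend and robust settings, the replicate number as a block, an exact permutation test, other limits of SD, and leaving out arrays.

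The genes and lists were chosen with earlier results of these data known. Named with values are the genes of the 3 classes with spread, the 3 with the highest mean in each class, the 2 on each side of the SD limit, and up to 2 genes with the largest difference in each other list. Other genes of the 3 classes, those without spread, are named to account for every gene. The lists of cofactors, regulators and cell type markers are from general knowledge. Promoter windows are those of RefSeq.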

Additional observations from a re-analysis of the deposited data

Results flagged for a closer look

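In 6 of the 54 groups of 7 mice examined for genes with spread (11.1%), 1 mouse lay far from the other 6 by Dixon's ratio, the gap to the nearest mouse as a share of the group's range, above its 95% limit for 7 values. For independent groups of normally distributed values chance alone marks about 1 group in 20. The groups here share mice and hold paralogs, so the 11.1% cannot be read as an excess over that rate. Each of 3 mice accounts for 2 of the 6.

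No-compression replicate 6 had a log2 signal of 10.02 for Sult2a8, where the next mouse of the group stood at 11.62 (ratio 0.676), and of 10.92 for Ugt2b1, where the next stood at 11.60 (ratio 0.617). Compression replicate 3 had 7.81 for Gstp3, below a next value of 8.08 (ratio 0.817), and 10.06 for Gstm7, below a next value of 10.32 (ratio 0.575). Compression replicate 4 had 10.16 for Gsta2, above a next value of 9.21 (ratio 0.608), and 11.23 for Gstk1, above a next value of 11.16 (ratio 0.648).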

How the results depend on the processing

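Limma called 0 of the phase II genes under every setting run. Rank products called 537 probe sets in either direction (10 of them in both). It called 9 of 27 phase II genes, 10 of 17 cofactor genes and 15 of 23 regulator genes with spread. Of all probe sets with spread it called 42.6%. Elovl3, Hsd3b5 and Slco1a1 among the regulator genes were called in both directions. No sign of a phase II gene turned under quantile normalization, median centring or the replicate block. Quantile normalization moved their differences by at most 0.024 and turned Papss2 to -0.019, and median centring by at most 0.00054. Unadjusted limma p-values under 0.05 over all probe sets numbered 1152, and 172 after quantile normalization, 112 after median centring, 735 with trend and robust settings and 523 with the filter on mean signal. Of the 1152, 92 had spread. The filter on mean signal kept 26 of the 27 genes with spread and gave the sulfotransferases a median of 0.19, since Sult1e1 left. With only probe sets with spread tested, the lowest adjusted p of a member in limma was 0.570. Taking the probe set with the largest SD, or adding hyphenated symbols, gave the same 52 genes.

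For same-numbered mice of the groups the labels give only the number in common, and a shared batch could not be tested. Correlations of their deviations ran from -0.488 to 0.336, and 1 of 7 numbers matched best with itself. With the replicate block limma called 0 of the genes, and 2 genes with spread had an unadjusted p under 0.05 in place of 1. Without no-compression replicates 3, 6 and 7 this count was 0.

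Without no-compression replicates 3, 6 and 7, 18 of 27 genes changed sign, and the cause was not tested. Their log2 differences were then 0.15 for Sult1e1, -0.078 for Sult2a8, 0.093 for Sult1a1, -0.064 for Gstt1, 0.029 for Gstm3, -0.072 for Gstp1, -0.056 for Gstp2, -0.036 for Gsta3, -0.0029 for Gstm4 and -0.0065 for Gstm1. For the UDP-glucuronosyltransferases they were -0.11 for Ugt2b1, -0.023 for Ugt3a1, -0.0060 for Ugt2b36, -0.023 for Ugt2b5, -0.0019 for Ugt2a3, -0.036 for Ugt2b38, -0.044 for Ugt2b35 and -0.016 for Ugt2b34. Among other genes the sign turned for Ugp2 (-0.029), Nnmt (0.31), Baat (-0.0015), Hmox1 (0.054), Cyp1a2 (-0.14), Slco1a1 (-0.35), Hsd3b5 (-0.60) and Cyp17a1 (0.32).

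With 1 array left out in turn, 8 genes changed sign with at least 1 array. The differences then ran from -0.022 to 0.16 for Ugt2b1 (turned without no-compression replicate 6), -0.14 to 0.040 for Gstm2 and -0.075 to 0.032 for Gstm6 (both without compression replicate 3), -0.0056 to 0.082 for Ugt2b38, -0.0041 to 0.045 for Ugt2b35, -0.0047 to 0.015 for Ugt2b34, -0.0064 to 0.0078 for Gstm4 and -0.0071 to 0.011 for Gstm1, and from -0.012 to 0.018 for Papss2. Class medians ran from -0.0071 to 0.032 for glutathione S-transferases (0.032 without compression replicate 3), 0.012 to 0.080 for UDP-glucuronosyltransferases (0.012 without no-compression replicate 6) and 0.0088 to 0.080 for sulfotransferases (0.0088 without no-compression replicate 1). The largest differences kept their sign, from -0.62 to -0.27 for Sult1e1 (-0.27 without no-compression replicate 6), 0.14 to 0.54 for Sult2a8 (0.14 without the same replicate), 0.21 to 0.38 for Gstt2, -0.46 to -0.20 for Gsta2, 0.16 to 0.23 for Sult5a1, -0.21 to -0.020 for Gstm3 (-0.020 without compression replicate 3) and 0.079 to 0.24 for Gstt1.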
